A study of Larix kaempferi with 6 samples.

Results

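The 40 transcripts described here were nearly silent in the shoot tips of watered larch seedlings and at moderate to high levels in seedlings deprived of water. They were chosen by level: 15 FPKM or more in each of 3 drought libraries and below 5 FPKM in each of 3 control libraries. FPKM is the number of fragments scaled to transcript length and to library size. The rule took 40 of 12228 transcripts, or 0.327% of the table. Because these levels chose the members, their levels and drought-control differences are descriptions, with no test, and support nothing.

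The libraries were made from the upper 3 cm of 4-month-old Larix kaempferi (Japanese larch, a deciduous conifer). The drought group, labelled D14, went 14 d without watering, and the control group, labelled CK, was watered normally. All seedlings had grown singly in pots in a greenhouse, with soil kept at 70% of field capacity or more before treatment. Each group has 3 libraries, and the labels do not say whether each came from a separate plant, so spreads between libraries may be partly technical. Shoot tips mix many cell types, so more cells of a type and more RNA per cell cannot be told apart.

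Plants losing water accumulate abscisic acid, which acts through a receptor, a phosphatase and a kinase to switch transcription factors on. Genes known from other plants to be nearly silent in watered tissue and strongly induced by drying include those for dehydrins and other late embryogenesis abundant proteins, small heat shock proteins and enzymes that make raffinose-type sugars. Such protective proteins and sugars help to preserve membranes and other proteins as cells dry. Gene names are not paired with identifiers in the files, so no member can be assigned to any of these families. Members are therefore named by rank, from 1 for the highest mean drought FPKM to 40, and by the length in their identifier. Identifiers are printed for ranks 1 and 2.

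The libraries of a group did not resemble each other equally. Over the 9317 transcripts with at least 1 FPKM in 3 or more libraries, drought 1 and 2 correlated at r = 0.96, and drought 3 correlated with them at 0.88 and 0.91. Controls 1 and 2 correlated at r = 0.99, and control 3 at 0.89 with each. Estimated depth was 12800000 to 14500000 fragments in the drought libraries and 14000000 to 17300000 in the controls, and 9530 to 9654 transcripts were above 0 per library.

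Silence in the controls was relative for most members. Only 3 of the 40 were listed at 0 in all 3 controls, 5 in 2 controls and 5 in 1 control, and 27 were above 0 in every control. The mean control level ranged from 0 to 4.44 FPKM, with a median of 1.54 over members. It was under 1 FPKM for 16 members and 3 FPKM or more for 6. By estimate, a median of 28.3 fragments per member were counted over the 3 controls together, and 6 members had at most 3. Most members thus had a low level that could be measured in the controls at this depth.

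In drought the same transcripts were spread over a wide range of levels. The mean drought level ran from 20.8 to 1061 FPKM, with a median of 119.2 over the 40 members. It reached 50 FPKM in 31 members, 100 FPKM in 21, 200 FPKM in 17 and 500 FPKM in 4. The median member stood at 159.2, 128.4 and 38.2 FPKM in drought 1, 2 and 3, against 1.06, 1.41 and 1.06 FPKM in controls 1, 2 and 3. Those medians were above 88.6%, 86.4% and 63.4% of all transcripts of drought 1, 2 and 3, against 25.0%, 25.7% and 25.9% of controls 1, 2 and 3. Among the 1000 most abundant transcripts of a library there were 18, 18 and 2 members in drought 1, 2 and 3, against 0 in each control.

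**Figure D1:**
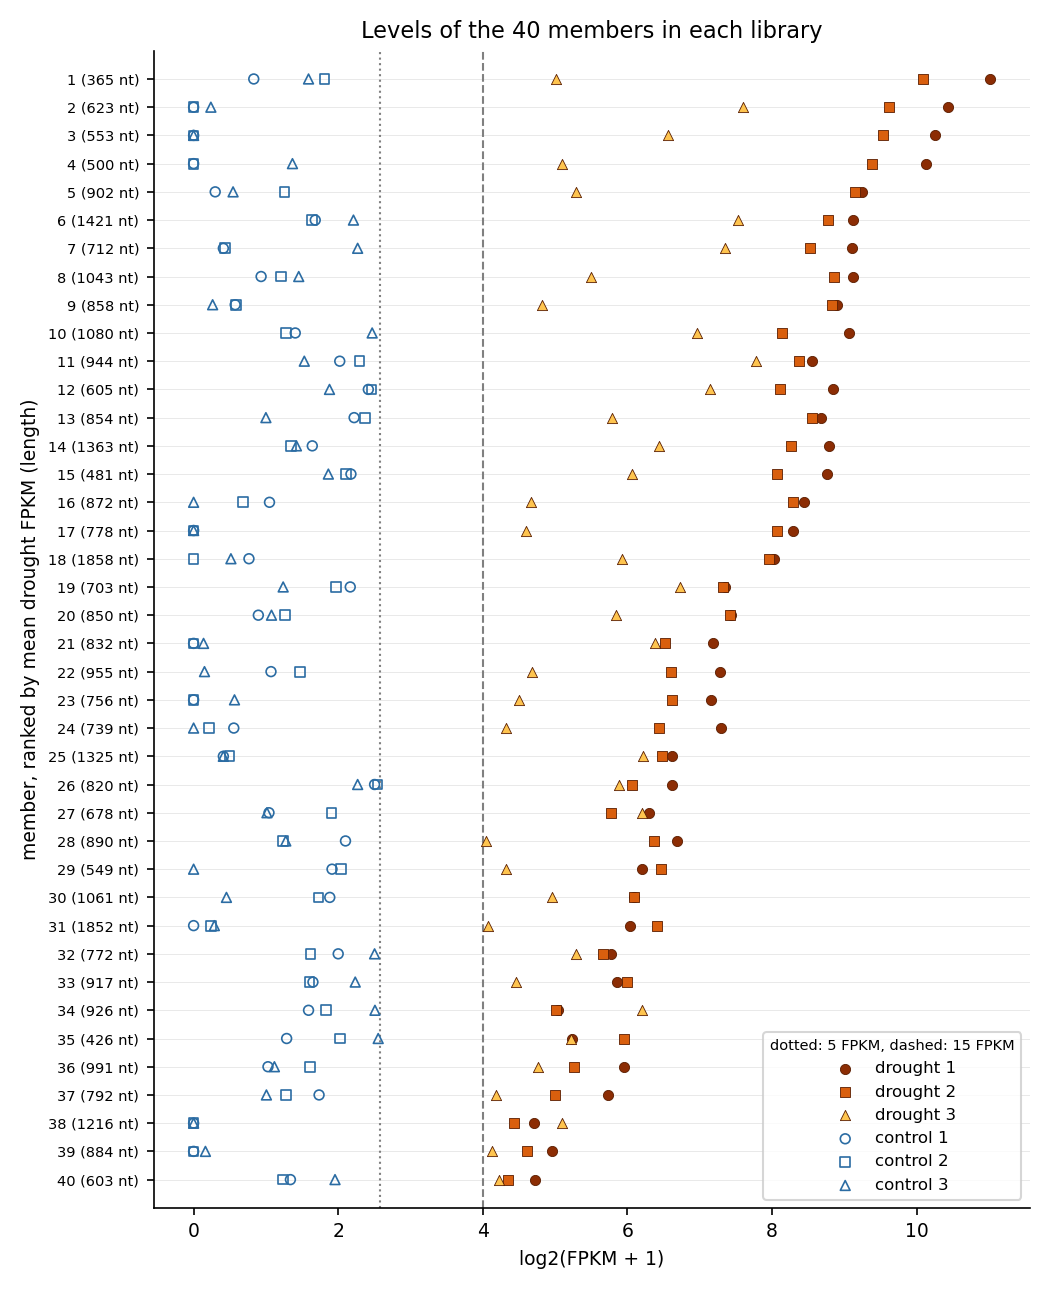
Level of each of the 40 members (rows, ranked by mean drought FPKM, with length in nt) in each library, on a log2(FPKM + 1) axis; filled symbols are drought libraries and open symbols controls, with lines at 5 and 15 FPKM. Drought 3 is the lowest drought library in 37 of the 40 rows, and it is farthest from drought 1 and 2 at the top.

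The size of the difference varied as widely as the drought level. For the 34 members with more than 3 estimated control fragments, mean drought FPKM was a median of 99.8 times mean control FPKM, with a range of 10.8 to 1150. It was 100 times or more in 17 of them and under 20 times in 6. On the log2(FPKM + 1) scale, the difference of drought and control means had a median of 5.80 over all 40 members and ran from 2.92 to 9.14, beside a median of 0.05 over all 9317 transcripts tested. All 40 members passed limma's moderated test across the whole table as higher in drought (Benjamini-Hochberg adjusted p under 0.05), where 10.3% of all tested transcripts were called higher and 9.71% lower. Nothing is read from that count, since the rule left no overlap between the groups. Each member also met the low-level filter, at least 1 FPKM in 3 libraries, through its drought libraries alone, whatever its controls held.

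Rank 1, Lo_f3p60_365_transcript34160_g3, is the shortest member at 365 nt. It had 2068.73, 1083.81 and 31.22 FPKM in drought 1, 2 and 3, against 0.78, 2.51 and 2.01 FPKM in controls 1, 2 and 3. The groups were apart, but drought 3 lay far closer to the controls than to drought 1. Its mean was 1061 ± 1019 FPKM in drought and 1.77 ± 0.89 FPKM in controls (SD, n = 3 each).

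Rank 2, Lo_f9p60_623_transcript10295_g1, of 623 nt, had 1377.42, 788.15 and 193.73 FPKM in drought 1, 2 and 3, against 0, 0 and 0.18 FPKM in controls 1, 2 and 3. Its control signal amounts to an estimated 1.07 fragments in all, so no fold is given. It had the largest log2(FPKM + 1) difference of the 40 members, at 9.14. Even its lowest drought library was at least 100 FPKM above every control.

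Ranks 3 and 4 were also short. Rank 3, of 553 nt, had 1222.06, 744.52 and 93.36 FPKM in drought 1, 2 and 3 and was listed at 0 in all 3 controls. Rank 4, of 500 nt, had 1115.74, 668.48 and 33.10 FPKM in drought 1, 2 and 3, against 0, 0 and 1.58 FPKM in controls 1, 2 and 3. In both, drought 1 was highest and drought 3 was lower than it by more than 10 times.

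Ranks 5 to 10 had mean drought levels between 313.2 and 404.9 FPKM. Rank 5, of 902 nt, had 608.30, 568.23 and 38.07 FPKM in drought 1, 2 and 3, against 0.23, 1.39 and 0.46 FPKM in controls 1, 2 and 3. Rank 6, of 1421 nt, had 557.13, 437.26 and 184.19 FPKM in drought 1, 2 and 3, against 2.21, 2.11 and 3.63 FPKM in controls 1, 2 and 3. These neighbours in rank differ mainly in drought 3, where rank 6 kept a high level and rank 5 did not. Rank 7, of 712 nt, had 548.09, 367.20 and 161.67 FPKM in drought 1, 2 and 3, against 0.33, 0.35 and 3.82 FPKM in controls 1, 2 and 3. Rank 8, of 1043 nt, had 558.04, 462.74 and 44.27 FPKM in drought 1, 2 and 3, against 0.91, 1.32 and 1.74 FPKM in controls 1, 2 and 3. In rank 7 control 3 stood above the other controls, while the controls of rank 8 were close together. Rank 9, of 858 nt, had 476.14, 455.62 and 27.24 FPKM in drought 1, 2 and 3, against 0.49, 0.50 and 0.20 FPKM in controls 1, 2 and 3. Rank 10, of 1080 nt, had 534.44, 280.96 and 124.20 FPKM in drought 1, 2 and 3, against 1.65, 1.43 and 4.54 FPKM in controls 1, 2 and 3. All of ranks 1 to 10 followed the order drought 1 over drought 2 over drought 3. Ranks come from the mean of the same 3 values, so this order at the top is a description only.

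The other members listed at 0 in every control were ranks 17 and 38. Rank 17, of 778 nt, had 313.54, 267.83 and 23.24 FPKM in drought 1, 2 and 3. Rank 38, of 1216 nt, had 25.20, 20.55 and 33.09 FPKM in drought 1, 2 and 3. With rank 3 they show that a listing at 0 in the controls went with drought means as far apart as 686.6 and 26.3 FPKM. A value of 0 may also be listed when fragments go to a near-identical transcript, and this was not examined here. Across all 40 members, mean control and mean drought FPKM had a Spearman rho of -0.09, given as a description over transcripts that share the same libraries.

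The members' joint share of the transcriptome was highest in drought 1 and 2. They held 1.20%, 0.937% and 0.238% of all FPKM in drought 1, 2 and 3, against 0.00549%, 0.00591% and 0.005004% in controls 1, 2 and 3. The mean was 0.790% ± 0.495 in drought and 0.00547% ± 0.00045 in controls (SD, n = 3 each). Drought 3 is the library that sets the drought SD. Ranks 1 to 4 made up 41.4%, 33.5% and 14.2% of the members' sum in drought 1, 2 and 3. Ranks 1 to 10 made up 64.8%, 59.7% and 37.6%. Ranks follow mean drought FPKM, to which drought 1 and 2 add most, so part of the lower value in drought 3 is built in.

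Counted as estimated fragments instead of FPKM, the share was smaller and the order of members changed. The members held 0.666%, 0.503% and 0.149% of the fragments on transcripts over 350 nt in drought 1, 2 and 3, against 0.00332%, 0.00329% and 0.00337% in controls 1, 2 and 3. The FPKM values behave as if each fragment count had been divided by the length minus 280 to 290 nt, so a fragment is worth most on the shortest transcripts. Rank 1 by FPKM, of 365 nt, came to 17th by fragments, with a mean of 1247 per drought library. Rank 6, of 1421 nt, came first, with 9217, 7072 and 2666 estimated fragments in drought 1, 2 and 3, against a sum of 140.9 over the 3 controls. Next came rank 14, of 1363 nt, and rank 18, of 1858 nt, with means of 4265 and 4236 fragments per drought library. Length and mean drought FPKM had a Spearman rho of -0.14 over the 40 members, and length and mean drought fragments one of 0.32.

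**Figure D2:**
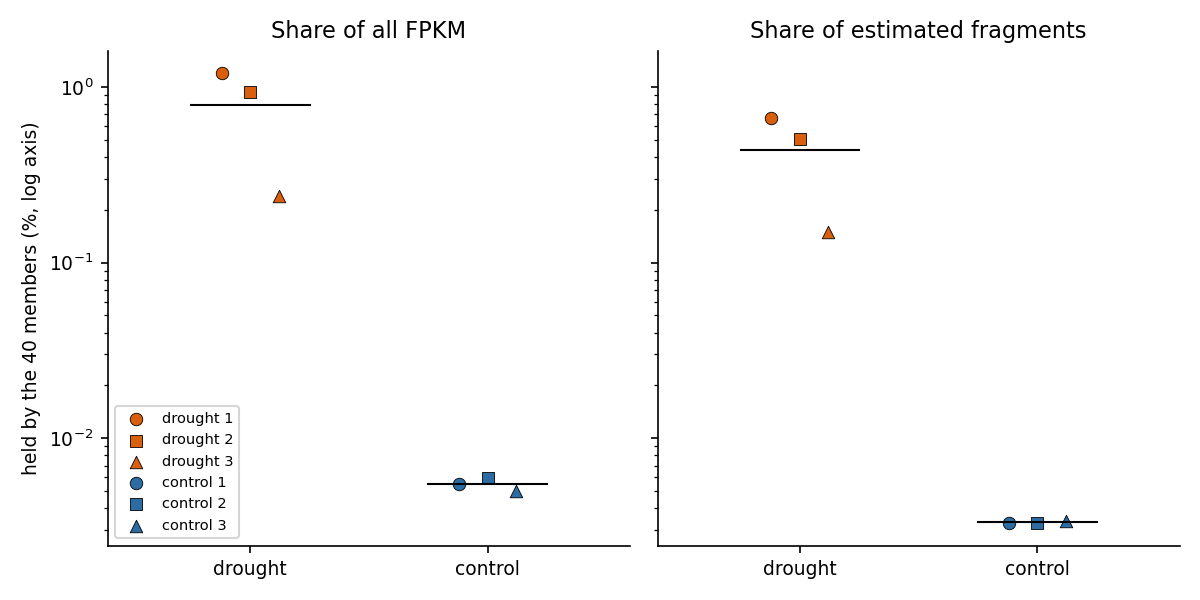
Share held by the 40 members in each library, of all FPKM (left) and of estimated fragments (right), on a log axis in percent; points are libraries and bars the mean of 3. Drought 3 holds 0.238% of FPKM, below the 1.20% and 0.937% of drought 1 and 2 and above every control.

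Levels also spread widely among the drought libraries. The ratio of the highest to the lowest drought library had a median of 3.85 over the 40 members, with quartiles of 1.80 and 7.22. Among the 6091 other transcripts at 15 FPKM or more in every drought library the median was 1.47. The ratio was 5 or more in 17 members (42.5%), against 0.985% of those other transcripts, and under 2 in 11 members (27.5%), against 82.4%. The rule set only a floor in drought, so these ratios were not chosen by it. The floor does bound them, since a member with a mean near 15 FPKM cannot vary much. Transcripts differ in other ways too, and no test was made of the difference.

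Drought 3 set most of this spread. Drought 3 was the lowest drought library in 37 of 40 members, drought 2 in 3 and drought 1 in 0. Of the 6091 other transcripts, drought 3 was lowest in 42.2%, drought 2 in 19.9% and drought 1 in 37.9%. Drought 1 was highest in 33 members, drought 2 in 5 and drought 3 in 2, against 39.5%, 33.4% and 27.1% of the other transcripts. The order drought 1 over 2 over 3 was found in 32 of 40 members, against 29.7% of the 6091 other transcripts. Drought 3 stood at a median of 0.318 times the mean of drought 1 and 2 in members, against 0.957 times in the other transcripts. On the log2(FPKM + 1) scale the median difference from the control mean was 6.60 in drought 1, 6.20 in drought 2 and 4.31 in drought 3.

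Drought 1 and 2 gave a similar pattern over the members, but not equal levels. Drought 1 stood at a median of 1.26 times drought 2 in members, against 0.996 times in the 6091 other transcripts. The log2(FPKM + 1) values of drought 1 and 2 correlated at r = 0.98 over the 40 members, while drought 3 correlated with them at 0.49 and 0.47. The points share libraries and are not replicates, so these are descriptions. The shortfall of drought 3 was greatest in the members with the highest levels: its ratio to the mean of drought 1 and 2 had a Spearman rho of -0.72 with that mean. The mean is also the denominator of the ratio, and the floor of 15 FPKM hides low ratios among low members, so part of that rho is built in. In the 17 members with a mean drought level of 200 FPKM or more the ratio had a median of 0.138. It was 0.285 in the 14 members between 50 and 200 FPKM and 0.743 in the 9 members below 50 FPKM.

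**Figure D3:**
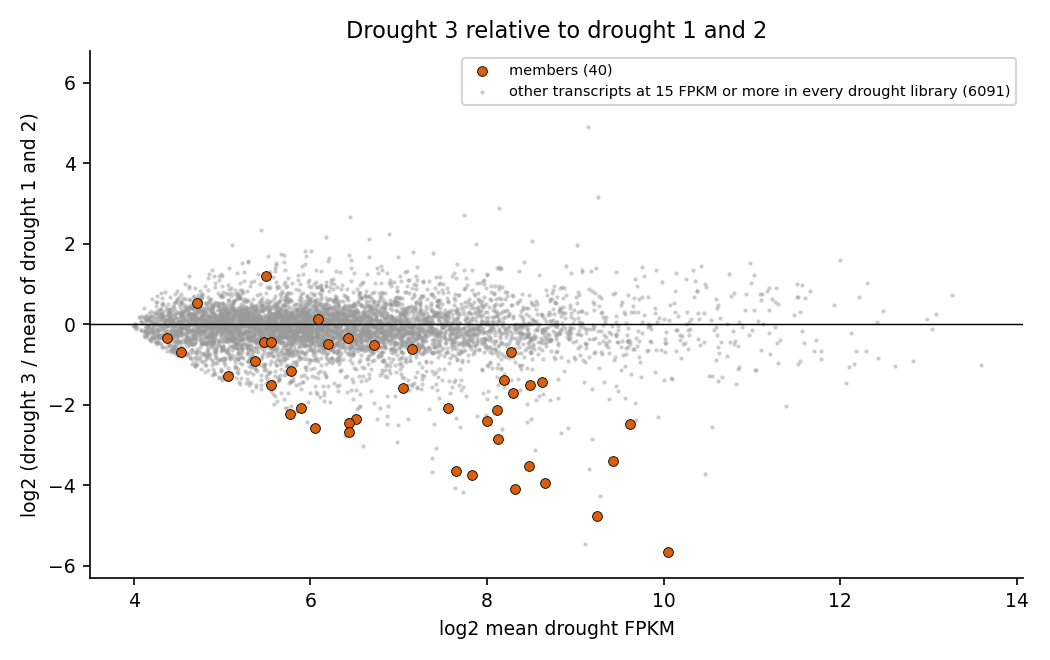
Log2 ratio of drought 3 to the mean of drought 1 and 2 (vertical) against log2 mean drought FPKM (horizontal), for the 40 members and the 6091 other transcripts at 15 FPKM or more in every drought library. Members lie below 0 in 37 of 40 cases, with a median of -1.65, while the grey cloud is centred near 0 (median -0.06); the empty lower left corner is set by the 15 FPKM floor.

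The extremes show both patterns. The largest ratios of highest to lowest drought library were 66.3 in rank 1, 33.7 in rank 4 and 17.5 in rank 9. The smallest was 1.33 in rank 25, of 1325 nt, with 96.96, 88.14 and 73.08 FPKM in drought 1, 2 and 3, against 0.33, 0.41 and 0.33 FPKM in controls 1, 2 and 3. Rank 32, of 772 nt, had a ratio of 1.40, with 53.45, 49.46 and 38.23 FPKM in drought 1, 2 and 3, against 3.00, 2.07 and 4.67 FPKM in controls 1, 2 and 3. Rank 40, of 603 nt, had a ratio of 1.43, with 25.31, 19.46 and 17.64 FPKM in drought 1, 2 and 3, against 1.53, 1.36 and 2.88 FPKM in controls 1, 2 and 3. A high level and an even response did occur together: rank 11, of 944 nt, had 375.20, 332.03 and 218.78 FPKM in drought 1, 2 and 3, against 3.06, 3.91 and 1.89 FPKM in controls 1, 2 and 3. That member was picked out after its values were seen.

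A few members went against the order. Drought 2 was lowest in ranks 27, 34 and 38, and drought 3 was highest in ranks 34 and 38. Rank 34, of 926 nt, had 31.93, 31.25 and 72.54 FPKM in drought 1, 2 and 3, against 2.01, 2.57 and 4.69 FPKM in controls 1, 2 and 3. Rank 27, of 678 nt, had 77.87, 53.59 and 72.42 FPKM in drought 1, 2 and 3, against 1.06, 2.75 and 1.02 FPKM in controls 1, 2 and 3. These 3 were also named after their values were seen.

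The low position of drought 3 was nearly as marked after rescaling. Drought 3 was lowest in 36 of 40 members after rescaling to equal FPKM sums, in 36 after upper quartile rescaling, and in 35 after a smooth length trend was removed from each library. Its median ratio to drought 1 and 2 was 0.341, 0.334 and 0.358 under these settings. The lead of drought 1 over drought 2 was less stable, since drought 1 was highest in 33 members as deposited, 34 with upper quartile rescaling, 23 with equal sums and 24 without the length trend.

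Transcripts already expressed in the controls are given beside the members. A set of 220 transcripts was at 5 FPKM or more in every control and at 15 FPKM or more in every drought library. Each was also at least 4-fold above the control mean by the average of drought 1 and 2 on the log2(FPKM + 1) scale. Drought 3 was lowest in 181 of the 220 (82.3%). The median log2 ratio of drought 3 to the mean of drought 1 and 2 was -1.65 in the members, against -0.69 there. The 220 also rose less. Their median log2(FPKM + 1) difference from the control mean was 2.87, 2.61 and 2.01 in drought 1, 2 and 3. In the members it was 6.60, 6.20 and 4.31. These 220 were chosen for a high level in drought 1 and 2 with no such demand on drought 3, which itself favours a lower drought 3, so their values are a description. The difference between these sets was not tested.

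Drought 3 was the failing library wherever a control-silent transcript met the floor in just 2 drought libraries. Of 3513 transcripts below 5 FPKM in every control, 2298 were listed at 0 in all 6 libraries and 3207 stayed below 5 FPKM in every drought library. The floor of 15 FPKM was met in 1 drought library by 34, in 2 by 70 and in 3 by the 40 members. In all 70 that met it in 2, the library below the floor was drought 3; the 34 that met it in 1 were below it in another drought library too. The 70 held 0.610%, 0.558% and 0.0395% of FPKM in drought 1, 2 and 3, and their median in drought 3 was 5.45 FPKM. The highest of them, of 611 nt, had 1336.43, 946.75 and 9.99 FPKM in drought 1, 2 and 3, against 0, 0 and 0.59 FPKM in controls 1, 2 and 3. Drought 3 was under 1 FPKM in 13 of the 70 and at 5 FPKM or more in 38. Without drought 3 the rule takes 110 transcripts. Without drought 1 or without drought 2 it takes 40.

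**Figure D4:**
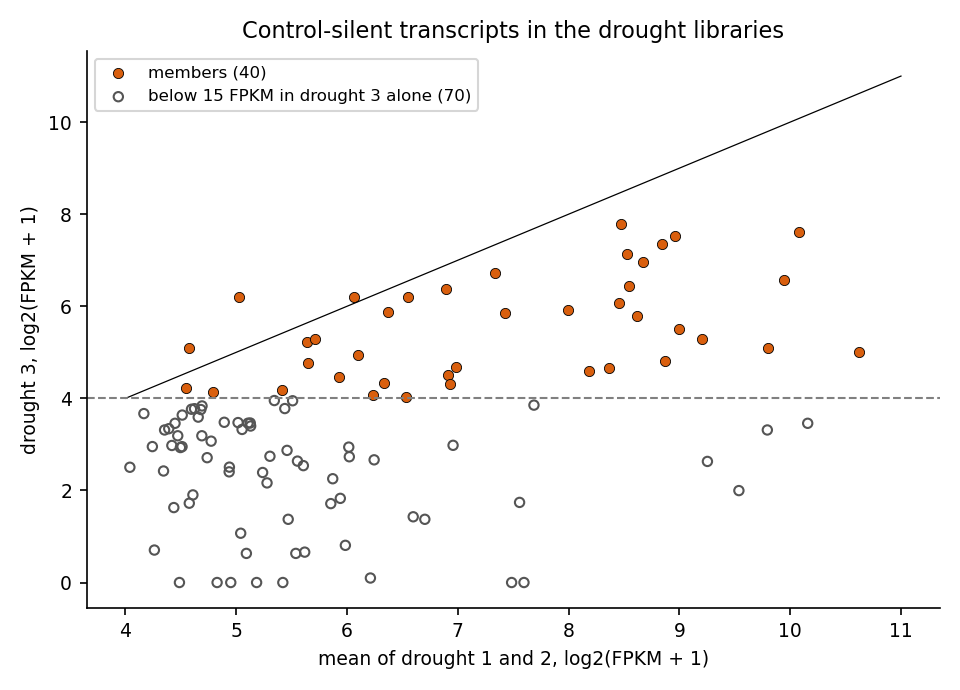
Drought 3 (vertical) against the mean of drought 1 and 2 (horizontal), both as log2(FPKM + 1), for the 40 members and the 70 transcripts that are below 15 FPKM in drought 3 alone; the diagonal marks equal values and the dashed line 15 FPKM. All members but 3 lie under the diagonal, as the 70 do by their choice. The highest of the 70, at a mean of 1141.59 FPKM in drought 1 and 2, lies right of every member but rank 1.

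The rule turned round gave a set of similar size but of lower levels. Transcripts below 5 FPKM in every drought library and at 15 FPKM or more in every control numbered 32, or 0.262% of the table. They held 0.00564%, 0.00475% and 0.00600% of FPKM in drought 1, 2 and 3, against 0.211%, 0.220% and 0.215% in controls 1, 2 and 3. Their mean control level had a median of 52.2 FPKM and a maximum of 252.8 FPKM, below the 119.2 and 1061 FPKM that the members reached in drought. Their ratio of highest to lowest control had a median of 2.06 and was 5 or more in 3 of 32. Here a single control stood in the same place as drought 3: of 51 near misses, control 3 was the failing library in 50.

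The members were short. Their length in the identifier had a median of 852 nt, quartiles of 697 and 964 nt and a range of 365 to 1858 nt. The median was 1175 nt over all 12188 other transcripts, 1264 nt over the 6091 others at 15 FPKM or more in every drought library, and 991 nt over the 3473 others below 5 FPKM in every control. Lengths under 1000 nt made up 31 of 40 members (77.5%), against 38.7%, 31.2% and 50.6% in those 3 sets. Lengths of 1700 nt and over made up 2 of 40 members, against 25.5%, 27.6% and 19.8%. Of the 3473, only 1175 were above 0 in some library. Those had a median of 1040 nt, with 47.2% under 1000 nt and 19.7% of 1700 nt and over. The mirrored set was also short, with a median of 788 nt and 68.8% under 1000 nt.

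By length class, the members made up 1.79% of transcripts under 600 nt that were at 15 FPKM or more in every drought library (6 of 336). The share was 1.75% from 600 to under 800 nt (11 of 627), 1.44% from 800 to under 1000 nt (14 of 971) and 0.214% from 1000 nt (9 of 4197). Among transcripts below 5 FPKM in every control the corresponding shares were 0.780%, 2.15%, 2.75% and 0.522%, so the shortest class no longer led. That base keeps the 2298 transcripts listed at 0 in all 6 libraries, which could not be members. Shares without them were not computed by length class. The FPKM thresholds ask for fewer fragments on short transcripts. By estimate 15 FPKM in the drought libraries is 40.3 to 47.9 fragments at 500 nt and 232.3 to 265.4 at 1500 nt. In the controls 5 FPKM is 14.7 to 19.0 fragments at 500 nt and 84.7 to 105.5 at 1500 nt. The part of this in the short lengths was not tested. The low position of drought 3 held in each class, with a median log2 ratio to drought 1 and 2 of -2.90, -1.39, -1.55 and -1.71 in members from the shortest class up, against -0.33, -0.29, -0.25 and 0.01 in the other transcripts.

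**Figure D5:**
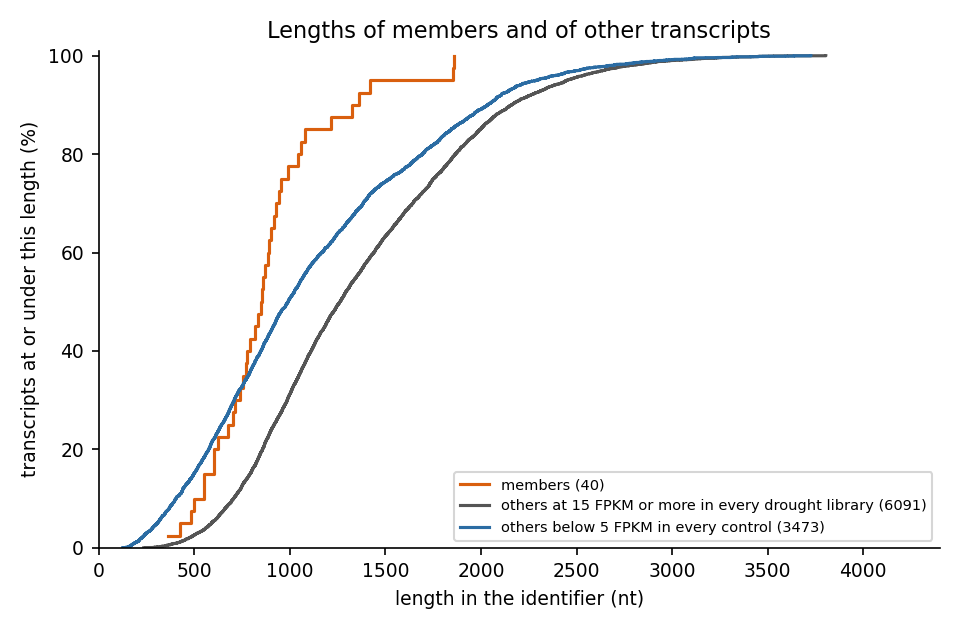
Cumulative share of transcripts (percent) at or under each length (nt, from the identifiers), for the 40 members, the 6091 others at 15 FPKM or more in every drought library, and the 3473 others below 5 FPKM in every control. The member curve passes 77.5% before 1000 nt, while the other curves stand at 31.2% and 50.6% there.

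The extremes of length show that neither end was tied to 1 level. After rank 1, the shortest members were rank 35, of 426 nt, with 36.61, 61.08 and 36.29 FPKM in drought 1, 2 and 3, and rank 15, of 481 nt, with 434.58, 266.43 and 65.92 FPKM. Their controls 1, 2 and 3 were at 1.44, 3.06 and 4.87 FPKM for rank 35 and at 3.52, 3.32 and 2.64 FPKM for rank 15. The longest was rank 18, of 1858 nt, with 258.94, 248.94 and 59.93 FPKM in drought 1, 2 and 3, against 0.70, 0 and 0.43 FPKM in controls 1, 2 and 3. Next came rank 31, of 1852 nt, with 64.45, 84.01 and 15.83 FPKM in drought 1, 2 and 3, against 0, 0.18 and 0.22 FPKM in controls 1, 2 and 3. The third longest was rank 6, described above.

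The identifiers carry other numbers that the rule did not use. In names written by PacBio's long-read isoform software, the number after f conventionally counts the full-length reads behind a consensus sequence. The sources used here do not state this for these files. They also do not state what the number after p counts, or which seedlings the long reads came from. The number after f was 5 or more in 10 of 40 members (25%), against 20.05% of the 6091 other transcripts at the drought floor. It was 5 or more in 12.2% of the 3473 others below 5 FPKM in every control. Of the 1175 among those 3473 that were above 0 in some library, 8.43% had 5 or more. The number after f reached 63 in rank 8 and 21 in rank 12, of 605 nt. The 10 members with 5 or more had a median of the drought means of 300.1 FPKM, against 86.8 FPKM for the 17 members with 2. The number after p was 60, the highest in the table, in 35 members (87.5%), against 80.0% of the others at the drought floor. It was 60 in 78.8% of all transcripts, so most share that value.

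Transcript numbers fell into 2 runs, 1 to 12175 and 12179 to 35088, each running from long to short transcripts. The first run held 15 of 40 members (37.5%), 29.8% of other transcripts, and 4 of the 32 transcripts of the mirrored set (12.5%). Members of the first run had a median drought mean of 86.9 FPKM and those of the second 142.2 FPKM. No source used here says what separates the runs.

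The thresholds cut through a continuous range of values. Just inside the control ceiling lay rank 35, rank 26 and rank 34, with highest controls of 4.87, 4.83 and 4.69 FPKM. Just outside lay transcripts of 1131, 1644 and 669 nt with highest controls of 5.16, 5.20 and 5.35 FPKM. The 669-nt transcript had 362.90, 209.26 and 331.14 FPKM in drought 1, 2 and 3, against 1.08, 0.55 and 5.35 FPKM in controls 1, 2 and 3, so that control 3 alone kept it out. Just inside the drought floor lay ranks 28, 31 and 39 with lowest drought values of 15.43, 15.83 and 16.49 FPKM, and just outside lay transcripts of 677, 673 and 731 nt with 14.48, 14.43 and 13.45 FPKM. In all 6 of these the deciding library was drought 3.

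The remaining members were at lower levels, and their order of drought libraries was less uniform. Of the 9 members with a mean below 50 FPKM, drought 3 was lowest in 7, and 5 followed the order drought 1 over 2 over 3. Ranks 12 to 16 had mean drought levels of 227.3 to 291.5 FPKM and ranks 19 to 24 of 86.8 to 142.2 FPKM, and in all of them drought 3 was lowest. Rank 21, of 832 nt, had 144.44, 90.78 and 82.08 FPKM in drought 1, 2 and 3, against 0, 0 and 0.10 FPKM in controls 1, 2 and 3. Rank 39, of 884 nt, had 29.98, 23.37 and 16.49 FPKM in drought 1, 2 and 3, against 0, 0 and 0.12 FPKM in controls 1, 2 and 3. Ranks 29, 30, 31, 33 and 35 were highest in drought 2, with mean drought levels of 44.7 to 59.6 FPKM.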

How the data were processed

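The authors deposited 1 table per library with FPKM values, named per the file headers and rounded to 2 decimals. The aligners Bowtie2 2.2.3 and HISAT2 2.1.0 and the counter HTSeq 0.6.0 are listed in the submitters' processing notes without saying which step each did. Nothing on counting, strand use or filters is given in the sources used here, and transcripts that share fragments may be split unevenly. Tables were joined by identifier and the rule was applied in each library. The members, lists and comparisons were chosen with earlier results of these data known. Depth was estimated from the steps of low FPKM values times length minus a fitted offset: 65.8% to 70.9% of values under 6 fragments were whole within 0.1 fragment. Counting intervals are not given. limma 3.58.1 (R 4.3.3) was run on log2(FPKM + 1), drought against control, with a mean-variance trend, no block, at least 1 FPKM in at least 3 libraries, and Benjamini-Hochberg adjustment over 9317 transcripts. It was tested on simulated data. Members described singly are the 10 highest, those listed at 0 in all controls, and the extremes of spread, length and threshold; others are named as chosen later or to complete the ranks. The length trend was removed with a lowess smoother (statsmodels 0.14.6).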

Additional observations from a re-analysis of the deposited data

How the results depend on the processing

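Leaving limma's count aside, 89 repeats changed 1 choice each, and 73 stayed near the reported value. Near means within 1.5 times for counts, ratios and lengths, and within 1 SD between libraries for levels, shares and log2 differences. That SD is wide, so 4 values that moved by over 1.5 times lie within it: 0.403% of drought FPKM at a control ceiling of 2 FPKM, 0.316% without the 10 highest members, 0.440% as estimated fragments, and a median level of 66.3 FPKM at a drought floor of 10 FPKM. With a control ceiling of 2 FPKM the rule took 18 members with a median highest-to-lowest ratio of 6.83. With a ceiling of 1 FPKM it took 12, with a ratio of 5.93 and 0.239% of drought FPKM. A drought floor of 30 FPKM left 24 members with a median drought level of 278.6 FPKM. Asked of group means, the rule took 137 transcripts, all 40 members among them, with 1.45% of drought FPKM, a median level of 39.6 FPKM and a median log2 difference of 3.80. A pseudocount of 10 gave a median log2 difference of 3.52 for the 40 members, as a larger pseudocount must. Leaving out 1 library gave 40 to 110 members, 0.588% to 1.65% of drought FPKM, a median level of 47.9 to 113.7 FPKM, a median log2 difference of 4.85 to 5.81 and a ratio of 1.29 to 3.60. Without drought 3 the rule took 110 transcripts with 1.65%, 47.9 FPKM, 4.85 and 1.29. Where a drought library was left out, the ratio spans 2 libraries in place of 3, which cannot raise it for any 1 transcript. Median length kept within 820 to 865 nt under every setting tried. Removing the length trend, chosen after seeing the data, gave 41 transcripts, 36 of them members. The count of 40 members passing limma's test was 39 or 40 in all 15 repeats. It was 40 with the replicate number as a block and 40 with controls 1 and 2 averaged. This shows nothing of stability, since the rule leaves no overlap between groups. Deviations of same-numbered libraries from their group means correlated at -0.15, 0.23 and -0.03 for replicates 1, 2 and 3. Differently numbered libraries were not compared in this way, so these values cannot decide whether the libraries were paired. Depth is estimated, and members with few control fragments have no firm fold.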
